A study of Mus musculus with 2 samples.

Results

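Alveolar macrophages with high transcript levels of inflammatory chemokines and cytokines were described in single-cell RNA libraries of mouse lung leukocytes, 1 from an animal or animals exposed to diesel exhaust particles (DEP) and 1 from an unexposed control. A cell barcode was a member when it held at least 10 unique molecular identifiers (UMIs, each standing for 1 captured transcript) summed over the alveolar macrophage genes Ear1, Plet1, Fabp1, Atp6v0d2 and Krt79, none of Cd79a (a B cell gene), Cd3e (a T cell gene) or Cd209a (a dendritic cell gene), and under 1% of its UMIs in the neutrophil genes S100a8 and S100a9. In addition, the 6 genes Cxcl1, Cxcl2, Ccl3, Ccl4, Tnf and Il1a had to make up at least 0.1% of its UMIs, so the members were chosen by the measured counts of these genes. The members numbered 562, of which 327 were in the exposed and 235 in the control library. They were taken from 970 barcodes of the alveolar macrophage gate (the same criteria without the last), 586 in the exposed and 384 in the control library, and from 19087 kept barcodes (at least 500 UMIs and 200 genes, at most 10% mitochondrial UMIs) of 20312 in all. The 408 other barcodes of the gate, 259 exposed and 149 control, are called low-chemokine alveolar macrophages.

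The exposed group was labelled Ccr2-/- (KO), CD45.3+, and had inhaled DEP at 500 µg/m³ by whole-body exposure for 1 hour per day on 5 days per week over 2 weeks. The control group was labelled Ccr2-/- (KO), CD45.1+, and received no treatment. The series' design text names wild-type mice besides Ccr2 knockout mice, while both libraries carried the knockout label, so a label may be wrong and a difference in genotype between the libraries cannot be told apart from exposure. The knockout is a loss of the chemokine receptor by which classical monocytes leave the bone marrow. The libraries differed also in the label of the CD45 allele. The series title concerns DEP, monocyte recruitment and allergic airway inflammation. CD45+ leukocytes had been sorted from saline-perfused lungs after digestion with collagenase V and DNase I at 37°C, and libraries were made with the 10x Genomics 3′ kit, which counts transcripts by their 3′ ends. Each group held 1 library, and whether it pooled animals is not stated, so there is no replicate spread to test against. The effects of exposure, of the CD45 allele and of the single library preparation cannot be told apart. All intervals are 95% intervals and cover counting error only. A gene is called higher or lower in what follows when the bound of its interval nearest to no difference lies beyond 1.5-fold, and no p-value was computed.

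Alveolar macrophages are the resident phagocytes of the air spaces, where they clear surfactant lipid, inhaled particles and microbes. When Toll-like receptors, the interleukin 1 receptor or the TNF receptor are engaged, the transcription factor NF-kB enters the nucleus and drives genes for neutrophil-attracting CXC chemokines, for CC chemokines that attract monocytes and lymphocytes, and for the cytokines TNF and interleukin 1. It also drives its own inhibitors, among them IκBα (Nfkbia) and A20 (Tnfaip3), which end the response. Tissue digestion at 37°C is known to induce some of the same genes in macrophages, and no undigested sample was analysed here, so the part of digestion in these levels was not tested.

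The 6 genes that define the members lie on 4 chromosomes of mm10, and each was protein-coding in the GENCODE annotation. Cxcl1 (chr5:90891241-90893115, plus strand) and Cxcl2 (chr5:90903871-90905938, plus strand) are neighbours that encode ligands of the neutrophil receptor CXCR2. Ccl3 (chr11:83647844-83649355, minus strand) and Ccl4 (chr11:83662584-83664683, plus strand) encode CC chemokines that attract monocytes and lymphocytes. Tnf lies at chr17:35199381-35202007 (minus strand) and Il1a, the gene of interleukin 1 alpha, at chr2:129299610-129309972 (minus strand). The 250 bases before the RefSeq start sites of Cxcl1, Cxcl2 and Tnf are shown because these genes gave the highest level in the members (Cxcl2), its neighbour (Cxcl1) and the gene with the largest ratio between libraries (Tnf). They come from the RefSeq table of GRCm38.p6, which held 5 of the 6 genes, all but Ccl4. Capitals mark matches to the NF-kB consensus and to TATAAA.
Cxcl1, chr5:90890995-90891244, plus strand: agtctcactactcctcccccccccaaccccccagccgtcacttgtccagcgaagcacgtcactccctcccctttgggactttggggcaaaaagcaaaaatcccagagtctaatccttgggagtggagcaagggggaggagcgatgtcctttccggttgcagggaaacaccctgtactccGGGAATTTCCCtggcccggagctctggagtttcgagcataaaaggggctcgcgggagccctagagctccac
Cxcl2, chr5:90903649-90903898, plus strand: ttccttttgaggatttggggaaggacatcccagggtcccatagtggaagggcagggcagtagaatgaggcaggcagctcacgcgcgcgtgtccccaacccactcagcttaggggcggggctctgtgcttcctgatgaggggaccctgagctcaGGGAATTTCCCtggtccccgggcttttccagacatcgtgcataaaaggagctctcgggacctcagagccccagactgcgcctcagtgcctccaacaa
Tnf, chr17:35202008-35202257, minus strand: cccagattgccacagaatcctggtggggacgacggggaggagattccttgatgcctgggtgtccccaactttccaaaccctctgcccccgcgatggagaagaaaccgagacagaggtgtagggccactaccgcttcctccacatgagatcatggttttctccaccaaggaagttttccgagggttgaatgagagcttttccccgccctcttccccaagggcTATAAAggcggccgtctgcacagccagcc

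Cxcl1 and Cxcl2 held the same match, GGGAATTTCC, 71 to 62 bases before the start site in Cxcl1 and 97 to 88 bases before it in Cxcl2, and in both genes it overlapped a match on the other strand. The motif searches covered both strands of the table's whole window of 250 bases before to 50 after the start. The NF-kB consensus was found in 8.46% of 32851 such windows. No match lay in the windows of Ccl3, Tnf or Il1a. TATAAA, found in 13.6% of windows, lay 29 to 24 bases before the start in Tnf and 32 to 27 bases before it in Il1a, and TGANTCA (AP-1), found in 7.81%, lay 12 to 6 bases before the start in Il1a. None of the 5 windows held TGACGTCA, found in 1.79%.

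The members carried the markers of alveolar macrophages. They summed to 6215300 UMIs in the exposed and 4653362 UMIs in the control library, with medians of 16778 and 18394 UMIs and 3997 and 4215 genes per barcode and 3.21% and 3.56% mitochondrial UMIs. Low-chemokine barcodes had medians of 15683 and 17128 UMIs, and kept barcodes outside the gate 4184 and 3771. Of 16 alveolar macrophage markers that the rule did not use, all 16 were seen in the members, and their summed level was 25393 UMIs per 1000000 (CPM) in exposed and 25537 CPM in control members, against 2375 and 3123 CPM outside the gate. Chil3, a chitinase-like protein, was the highest of them at 10800.3 and 10963 CPM. Only 1 of the 23 barcode sequences shared by the libraries belonged to a member of either. Ccr2 had 433 UMIs in exposed and 186 in control members, 69.7 and 39.97 CPM, against 213.5 and 141 CPM outside the gate. The part of Ccr2 removed in the knockout is not given in the sources used here, so 3′ counts do not check that label.

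Markers of other leukocytes were not absent in the members, and their distance from the level outside the gate differed by lineage. Neutrophil markers, 8 genes of which Ly6g was at 0, summed to 462 and 431 CPM in exposed and control members and 280 and 230 CPM in low-chemokine barcodes, against 32462 and 28352 CPM outside the gate. Among these 8 genes are S100a8 and S100a9, which the rule limits. Monocyte markers summed to 1055 and 808 CPM in the members and 646 and 466 CPM in low-chemokine barcodes, against 2674 and 1915 CPM outside the gate. Nr4a1, which is also an immediate early gene, was the highest of the 9 in the members. Interstitial macrophage markers summed to 544 and 368 CPM in the members and 152 and 173 CPM in low-chemokine barcodes. Outside the gate they summed to 554 and 712 CPM, so the exposed members were near that level. The marker sums of B cells, T cells, NK cells, group 2 innate lymphoid cells, dendritic cells, basophils, epithelium, stroma and red cells lay between 0.322 and 83.0 CPM in exposed and between 0.430 and 93.9 CPM in control members. Barcodes with 5 or more UMIs summed over 12 genes of other lineages (C1qa, C1qb, C1qc, Ly6c2, Cd79b, Ms4a1, Trbc2, Nkg7, Gzma, Csf3r, Retnlg and Flt3) are called mixed. They made up 17.1% of exposed and 14.5% of control members (56 and 34 barcodes), against 8.88% and 8.05% of low-chemokine barcodes (23 and 12), and had medians of 27472 and 28364 UMIs in the members. Values without mixed barcodes are given beside many of the results below.

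A smaller share of alveolar macrophages passed the chemokine criterion in the exposed library, by a margin within counting error. The share was 55.8% (51.7 to 59.9%) of exposed and 61.2% (56.1 to 66.1%) of control gate barcodes by the exact Clopper-Pearson method, a ratio of 0.912 (0.819 to 1.02). With a criterion of 0.05% the shares were 66.7% and 75.5%, a ratio of 0.884 (0.815 to 0.958), and with 1% they were 7.34% and 6.25%, a ratio of 1.17 (0.725 to 1.90). Barcodes with no UMI of the 6 genes made up 7.34% of the exposed and 3.91% of the control gate (43 and 15 barcodes). The members made up 3.48% (3.12 to 3.87%) of all kept exposed barcodes and 2.42% (2.13 to 2.75%) of kept control barcodes, a ratio of 1.44 (1.22 to 1.69). Low-chemokine barcodes were also a larger share of kept exposed barcodes, 2.76% against 1.54% in the control library, a ratio of 1.79 (1.47 to 2.19). Shares of kept barcodes depend on the CD45+ sort and on how many other leukocytes each library held.

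**Figure D1:**
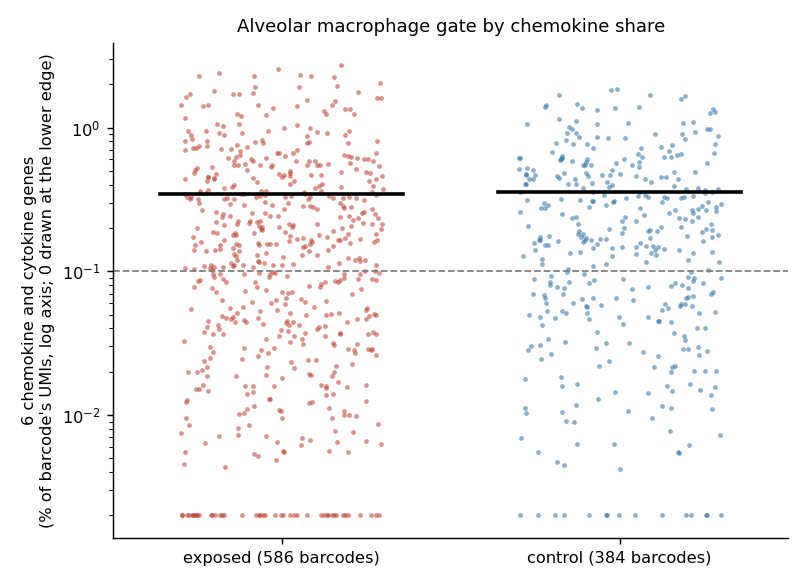
Percent of each barcode's UMIs in the 6 chemokine and cytokine genes (log axis) for the 586 exposed and 384 control barcodes of the alveolar macrophage gate. Each point is a barcode, the dashed line is the 0.1% criterion and the black bars are the medians of the members, 0.344% and 0.354%; barcodes at 0 are drawn at the lower edge.

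Inside the gate the 6 genes formed a continuous range, as the plot of chemokine shares by library shows. The members are the upper part of a range set by the criterion. Among exposed members the 6 genes made up a median of 0.344% of UMIs (quartiles 0.187 and 0.652%, highest 2.72%), and among control members 0.354% (quartiles 0.195 and 0.612%, highest 1.84%). Just inside the criterion, between 0.1 and 0.12%, lay 25 exposed and 8 control barcodes, and just outside it, between 0.08 and 0.1%, lay 29 exposed and 17 control barcodes.

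Cxcl2 dominated the signal. Its summed level was 3358 CPM in exposed and 2866 CPM in control members, against 144 and 164 CPM in low-chemokine barcodes, and it supplied 61.6% and 62.0% of the members' UMIs of the 6 genes. Tnf stood at 1020 CPM in exposed and 711 CPM in control members and at 92.5 and 90.6 CPM in low-chemokine barcodes. Il1a stood at 395 and 440 CPM, Cxcl1 at 299.9 and 271 CPM, Ccl3 at 225 and 206 CPM and Ccl4 at 157 and 127 CPM in exposed and control members. The order of the 6 levels was the same in both libraries, on a scale that does not grow with transcript length because only 3′ ends were counted. The distance of members from low-chemokine barcodes in these genes follows from the rule.

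**Figure D2:**
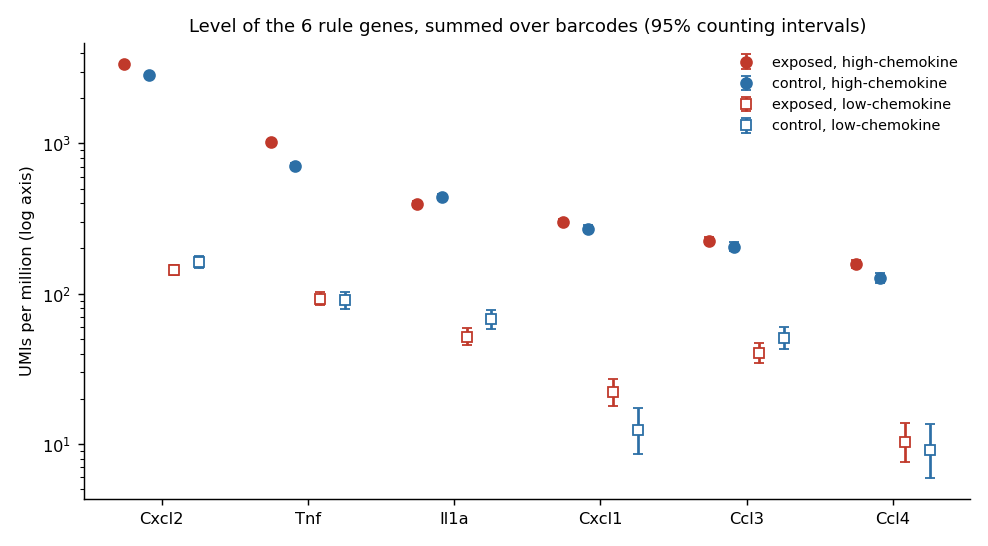
Levels of the 6 genes of the rule, in CPM on a log axis, summed over the members (filled circles) and over low-chemokine barcodes (open squares) of the exposed (red) and control (blue) libraries, with 95% counting intervals. Tnf shows the widest gap between the libraries in the members, 1020 against 711. In low-chemokine barcodes, where the criterion limits the 6 genes from above, Tnf stands at 92.5 against 90.6.

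Single members varied widely around these sums. The 10th, 50th and 90th percentiles of Cxcl2 were 389, 1946 and 8155 CPM over exposed members and 557, 2065 and 6704 CPM over control members, so exposed members reached both lower and higher. For Tnf they were 108, 722 and 2746 CPM over exposed members and 61.0, 541 and 1689 CPM over control members, each higher in the exposed library. The other 4 genes had a 10th percentile of 0 in both libraries, and Ccl4 had a median of 0.

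The genes differed in how many members carried them. With each barcode thinned to 3000 UMIs, which left out 1 exposed and 2 control members as shallower, Cxcl2 had a UMI in 90.8% of exposed members and 94.0% of control members, and unthinned in 98.8% and 98.3%. Thinning left out 293 of 1575 exposed and 526 of 1754 control B cell barcodes, so thinned B cell shares cover only the deeper ones. In B cell barcodes, which had medians of 3812 and 3503 UMIs, the thinned share for Cxcl2 was 14.6% and 18.7%. There 97.9% and 97.4% of its unthinned UMIs lay in the 10% of barcodes richest in it. The B cell shares therefore do not measure background alone. Tnf was seen in 76.7% and 72.1% of members and in 2.34% and 2.28% of B cell barcodes. Il1a was seen in 46.9% and 48.9% of members, Cxcl1 in 35.3% and 34.3% and Ccl3 in 28.8% and 27.5%. Ccl4 was seen in 9.82% and 9.44% of members, against 5.93% and 9.20% of B cell barcodes. Whether Ccl4 was background in most of these members was not tested. Its UMIs were concentrated, with 94.9% and 94.6% of them in the 10% of members richest in it and 31.1% in 1 exposed barcode.

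Members fell mostly into barcodes led by Cxcl2, with a smaller set led by Tnf. Cxcl2 had the most UMIs of the 6 genes in 239 of 327 exposed members (73.1%, 67.9 to 77.8%) and 190 of 235 control members (80.9%, 75.2 to 85.7%). Tnf led in 61 exposed members (18.7%, 14.6 to 23.3%) and 22 control members (9.36%, 5.96 to 13.8%), a ratio of shares of 1.99 (1.26 to 3.15). This split was chosen after the data had been seen. Tnf-led members had 1813 and 1309 CPM of Tnf, 1002 and 746 CPM of Cxcl2 and 478 and 672 CPM of Il1b in the exposed and control libraries. Their level of Nfkbia was 2643 and 2811 CPM, against 2696 and 2495 CPM in Cxcl2-led members. All 6 genes were seen in 43 exposed and 19 control members, and the most common number was 4, in 111 and 93 members.

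Among members thinned to 3000 UMIs the 6 genes had low rank coefficients with each other. The highest Spearman coefficient was between the neighbours Cxcl1 and Cxcl2, at 0.42 over 326 exposed and 0.33 over 233 control members. Tnf and Il1a had 0.32 and 0.26, and Cxcl2 and Tnf 0.28 and 0.29. Ccl3 and Ccl4 had 0.20 and 0.04. All barcodes of a coefficient share 1 library, so these values only describe the libraries. The members were chosen by the sum of these 6 genes, which can lower the coefficients between its parts. Thinning also left Ccl3 and Ccl4 unseen in most members, so low coefficients do not show that the genes are unrelated.

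Beyond the genes of the rule, high-chemokine members of both libraries carried more transcripts of NF-kB feedback, cytokine and sensing genes than low-chemokine barcodes did. This contrast is the one that the rule cut, so its values describe the members and test nothing. Of 8355 genes with at least 50 UMIs in each library, 88 were called higher in the members of both libraries (1.05%) and 7 lower (0.0838%), the 6 genes of the rule among the 88. Within single libraries the calls were 157 higher (1.75% of 8987) and 57 lower (0.634%) in the exposed, and 115 higher (1.37% of 8382) and 84 lower (1%) in the control library. Of all genes with at least 20 UMIs, the minimum for gene lists, 45.9% were higher in exposed and 40.7% in control members. Of these genes 1.71% were called higher and 0.814% lower in the exposed, and 1.34% and 1.22% in the control library.

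Most genes of NF-kB subunits and feedback inhibitors were higher in the members. Of 21 list members, 20 were higher in the members of the exposed and 19 in those of the control library, with 10 and 9 called higher and medians of 0.75 and 0.78 log2 units, against medians over all genes counted of -0.02 and -0.06. Nfkbia, the gene of the inhibitor IκBα, stood at 2600 CPM in high- and 877 CPM in low-chemokine barcodes of the exposed library, and at 2524 and 926 CPM in those of the control library. Tnfaip3, the gene of the ubiquitin-editing enzyme A20, stood at 426 and 125 CPM in the exposed and 533 and 144 CPM in the control library. Nfkbiz, an atypical inhibitor family member that serves as a coactivator, stood at 398 and 116 CPM and at 345 and 102 CPM. The subunit genes were also higher, Nfkb1 at 234 and 139 CPM and at 308 and 147 CPM, and Rel at 248 and 147 CPM and at 255 and 150.4 CPM. Tnfaip2, a TNF-induced gene, stood at 1559 and 811 CPM and at 1874 and 1101 CPM. Bcl2a1b and Bcl2a1d are near-identical copies, so their counts are uncertain.

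Other cytokines and chemokines went the same way in part. Of the other cytokines, 12 of 17 counted were higher in exposed and 14 of 15 in control members, with 8 and 9 called and medians of 0.64 and 1.53 (0.30 with 5 called and 1.75 with 9 called without mixed barcodes). Il6 stood at 28.8 and 2.31 CPM in high- and low-chemokine barcodes of the exposed library and at 45.8 and 3.30 CPM in those of the control library. Il1b, the inflammasome-processed interleukin 1, stood at 1281 and 430 CPM and at 898 and 199.9 CPM, and Osm, the gene of oncostatin M, at 267 and 122 CPM and at 302 and 150 CPM. Il23a, a subunit of interleukin 23, stood at 20.4 and 1.62 CPM and at 14.4 and 0.734 CPM, with 33.9% and 34.3% of its UMIs in 1 member. Of the other chemokines, 8 and 9 of 15 counted were higher, against 45.9% and 40.7% of all genes counted, and 6 were called higher in each library. Cxcl3, a further CXCR2 ligand, stood at 54.5 and 6.23 CPM and at 50.1 and 2.20 CPM, and Cxcl10, a ligand of the lymphocyte receptor CXCR3, at 175 and 25.8 CPM and at 176 and 36.3 CPM. Ccl17 stood at 48.4 and 101 CPM and at 23.9 and 47.3 CPM, with 75.4% of its UMIs in exposed members in 1 barcode. Its direction was not stable, with log2 ratios of 0.0022 without mixed barcodes and 0.51 at a criterion of 0.05% in the exposed library and 1.51 at a marker sum of at least 20 in the control library. The growth factor genes Ereg and Areg, which encode ligands of the epidermal growth factor receptor, were called higher in both libraries.

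The list of sensing receptors and adaptors joins microbial sensors with receptors of interleukin 1 and TNF. Of its genes, 13 of 17 counted were higher in the exposed and 14 of 16 in the control library. In each library 4 were called, and the medians were 0.24 and 0.54. Clec4e (Mincle, a lectin receptor) stood at 198 and 43.6 CPM and at 154 and 35.2 CPM, Nlrp3 (the inflammasome sensor) at 231 and 92.5 CPM and at 266 and 129 CPM, and Cd14 (the lipopolysaccharide co-receptor) at 503 and 216 CPM and at 381 and 183 CPM. Slc7a11, the cystine transporter and an NRF2 target, stood at 91.1 and 24.0 CPM and at 137 and 38.9 CPM, while the NRF2 list as a whole had medians of 0.10 and 0.02.

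Most immediate early genes, a class to which genes induced by digestion belong, were higher in the members, and the part of digestion was not tested. Of 28 counted, 20 and 21 were higher in the members and 7 and 6 were called. The medians were 0.32 and 0.33, against -0.02 and -0.06 over all genes counted. Gadd45b, Zfp36 and Junb were called higher in both libraries, Zfp36 at 1024 and 518 CPM and at 1158 and 613 CPM. Fos was at 600 and 634 CPM and at 636 and 772 CPM, Jun at 397 and 483 CPM and at 279 and 407 CPM, and Atf3 at 160 and 153 CPM and at 146 and 147 CPM, none of them higher by the call. Heat shock chaperones were lower for 9 of 12 and 8 of 12 counted genes, with medians of -0.32 and -0.13, but at a criterion of 0.05% the exposed median was 0.071. Of all genes counted, 45.9% and 40.7% were higher, so most genes lay lower as well. Hspa1b stood at 97.2 and 338 CPM and at 71.1 and 161 CPM in high- and low-chemokine barcodes, and at that criterion its exposed log2 ratio was 0.19. Hspa1a and Hspa1b are near-identical copies and share reads.

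Most alveolar macrophage identity genes were near level. Ear1, an eosinophil-associated ribonuclease with near-identical paralogs, stood at 861 and 916 CPM in high- and low-chemokine barcodes of the exposed and at 946 and 1033 CPM in those of the control library. Chil3 stood at 10800.3 and 10763 CPM and at 10963 and 11593 CPM. Plet1 was higher without being called, at 1525 and 1179 CPM and at 1806 and 1350 CPM. Of the 16 markers outside the rule none was called in either library, and their medians were -0.08 and -0.09. Without mixed barcodes 1 of the 16 was called higher in control members, and the medians were -0.03 in both libraries. Lysosome, glycolysis and scavenger receptor lists had medians between -0.07 and 0.12 in both libraries. MHC class II genes were lower in exposed members for 11 of 11, with 5 called and a median of -0.73, and had a median of 0.20 in control members with none called (-0.66 and -0.30 without mixed barcodes). Complement genes had medians of 0.84 and 0.89, and 0.25 and 0.13 without mixed barcodes. Interferon response genes were higher for 17 of 18 counted in exposed and 8 of 12 in control members, with 8 and 4 called and medians of 1.33 and 0.45 (0.26 and 0.04 without mixed barcodes). Cell cycle genes had medians of -0.01 in exposed and -1.22 in control members, where 17 of 18 were lower and 11 were called. Without mixed barcodes 12 of 18 were higher in exposed members, with 2 called and a median of 0.24, and the control median was -1.25.

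**Figure D3:**
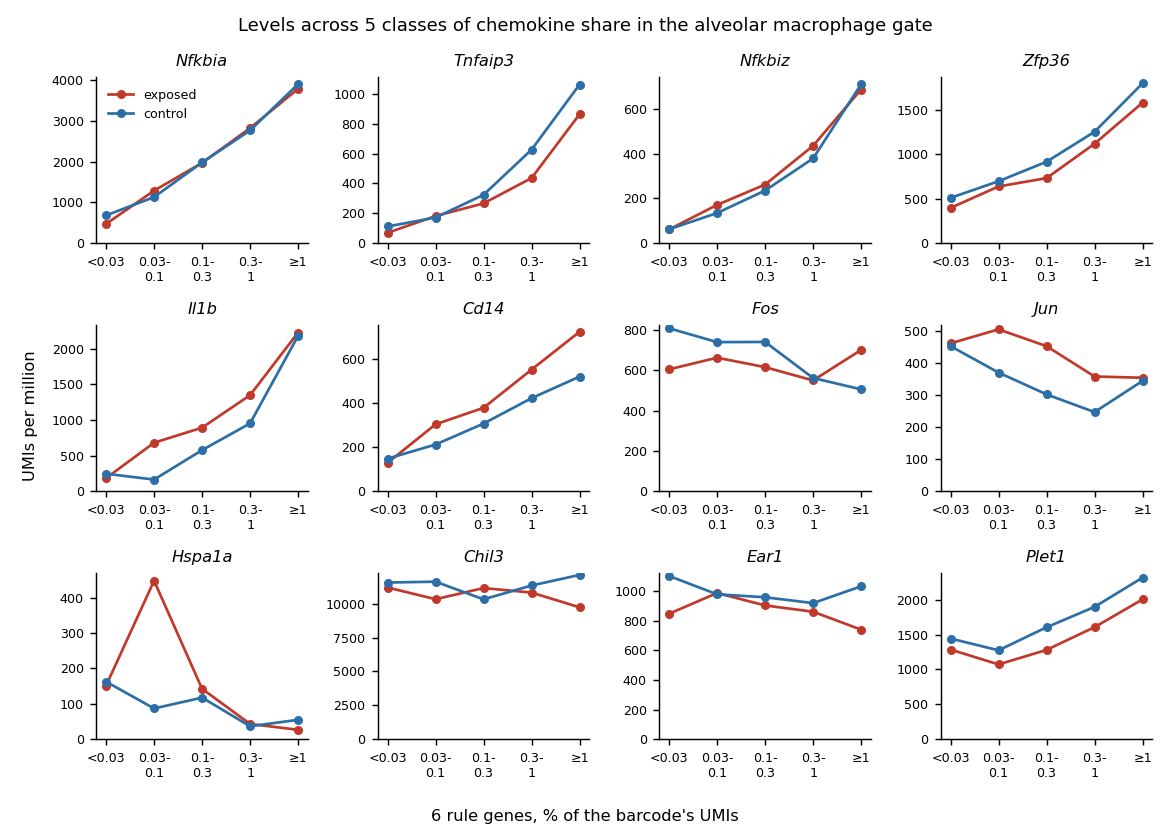
Levels of 12 genes in CPM (linear axes from 0) across 5 classes of the share of the 6 rule genes, for the exposed (red) and control (blue) libraries. Nfkbia, Tnfaip3, Nfkbiz, Zfp36 and Cd14 are higher at each step in both libraries, Chil3 and Ear1 stay level, and Hspa1a peaks in the exposed class of 0.03 to 0.1% at 447.

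Summed levels of many of these genes were higher with each step in the chemokine share. The gate was divided by the share of the 6 genes into classes of under 0.03%, 0.03 to 0.1%, 0.1 to 0.3%, 0.3 to 1% and 1% or more, with 145, 114, 139, 145 and 43 exposed and 71, 78, 97, 114 and 24 control barcodes. Of 8355 genes, 118 (1.41%) were higher at each of the 4 steps in both libraries and 27 (0.323%) lower at each. Nfkbia stood at 471, 1287, 1969, 2822 and 3787 CPM over the exposed and at 680, 1129, 1979, 2765 and 3901 CPM over the control classes. Tnfaip3 stood at 69.4, 181, 266, 436 and 863 CPM and at 111, 171, 324, 626 and 1062 CPM. From 0.1% upward Nfkbia had nearly the same level in both libraries, and in the lowest class it was higher in the control library, while Tnfaip3 was higher in the control library in 4 of 5 classes. By list, 9 of 21 NF-kB genes were higher at every step, 6 of 16 sensing genes, 5 of 11 other cytokines and 6 of 26 immediate early genes. None of the 5 or 16 alveolar macrophage markers and none of 12 heat shock, 18 lysosome, 16 glycolysis or 18 cell cycle genes was. These classes too were cut by the rule's own genes, and a summed level does not tell a higher level per cell from a larger share of cells with the transcript.

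Further genes with the graded pattern, picked after their values were seen, were Icam1 (an adhesion molecule) at 45.9, 87.6, 135, 200.2 and 238 CPM over the exposed and 72.4, 80.9, 148, 202.5 and 239 CPM over the control classes, and Prdm1 (the transcription repressor Blimp-1) at 35.4, 52.9, 101, 136 and 249 CPM and 55.3, 72.2, 105, 162 and 372 CPM. Hilpda, a lipid droplet protein, stood at 98.3, 141, 229, 308 and 487 CPM and at 144, 175, 264, 446 and 726 CPM. Among genes lower at each step were Id1, a transcription inhibitor, at 91.9, 89.5, 49.0, 43.6 and 15.6 CPM and 93.5, 77.6, 66.9, 35.9 and 11.9 CPM, and Txnip, the thioredoxin-interacting protein, at 375, 309, 270.0, 254 and 174 CPM and 368, 342, 299.7, 202 and 162 CPM. Gadd45g stood at 216, 159, 134, 86.1 and 45.6 CPM and at 180, 159, 120.1, 78.1 and 38.2 CPM.

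The comparison of exposed with control members addressed what differed with DEP in macrophages of the same chemokine class. Of 9014 genes with at least 50 UMIs, 49 (0.544%) were called higher and 19 (0.211%) lower in exposed members. None of the 6 rule genes, none of the 21 NF-kB genes and none of the 5 alveolar macrophage genes of the rule was among them. The median log2 ratio over all genes tested was -0.04. Of the 49 genes, 37 could be tested in low-chemokine barcodes, where 12 were also called higher and 23 lay above 0, against 0.373% of all 8317 genes called higher there. Of the 19, 12 could be tested, and 1 was also called lower and 5 lay below 0, against 0.745% called lower. In all, 9 genes were called in opposite directions in the members and in low-chemokine barcodes.

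Tnf had the highest ratio of the rule genes. It stood at 1020 CPM (995 to 1045) in exposed and 711 CPM (687 to 736) in control members, a 1.43-fold difference with a log2 ratio of 0.52 (0.46 to 0.58), and kept a ratio between 0.48 and 0.60 under the alternatives run. Over the whole gate, which the chemokine criterion did not cut, Tnf stood at 639 CPM in exposed and 482 CPM in control barcodes (0.41, 0.35 to 0.47). In low-chemokine barcodes the log2 ratio was 0.03 (-0.20 to 0.27), and the difference of the ratios between the classes was 0.49 (0.26 to 0.73). Cxcl2 had a log2 ratio of 0.23 (0.20 to 0.26) in the members and 0.13 over the gate. Il1a was lower, at -0.16 (-0.24 to -0.07) in the members and -0.25 (-0.33 to -0.17) over the gate. Ccl4 stood at 0.30 (0.15 to 0.45) in all members and at -0.82 (-1.15 to -0.50) without mixed barcodes, and its direction is not given. The criterion itself limits the values of the 6 genes, fixing their sum from below in the members and from above in low-chemokine barcodes. This bears on the low-chemokine Tnf ratio and on the difference between classes, which describe the classes and test nothing.

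NF-kB genes differed little between the libraries. Of 21, 13 were higher and 8 lower in exposed members, with a median of 0.01, and without mixed barcodes the median was -0.11. Nfkbia had a log2 ratio of 0.04 (0.01 to 0.08). Tnfaip3 was lower in exposed members, at 426 CPM against 533 CPM in control members (-0.32, -0.40 to -0.25), and over the gate at 302 CPM against 389 CPM in the control library (-0.37, -0.44 to -0.29). Nfkb1 had a log2 ratio of -0.40 (-0.50 to -0.29). Il1b was higher, at 1281 CPM in exposed and 898 CPM in control members (0.51, 0.46 to 0.57), but without mixed barcodes it stood at 728 and 792 CPM (-0.12, -0.19 to -0.05). Ptgs2, the inducible cyclooxygenase, was called higher at 102 CPM in exposed and 39.3 CPM in control members (1.37, 1.13 to 1.62), and without mixed barcodes it stood at 20.7 CPM in both. Sensing genes had a median of -0.18, with 11 of 16 lower in exposed members and Il1r2, a decoy receptor for interleukin 1, called lower at 20.1 CPM against 38.9 CPM in control members. Without mixed barcodes Il1r2 stood at 10.3 and 17.9 CPM (-0.79, -1.37 to -0.23) and was not called.

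Most called genes rested on few barcodes. Of the 49 genes called higher, 32 had at least 10% and 7 at least 25% of their UMIs in 1 barcode, 29 were below 0.5 times their level outside the gate, and 16 were still called without mixed barcodes. Of the 19 called lower the numbers were 11, 8, 13 and 3. Saa3, an acute-phase gene, led with 518 UMIs in exposed and 3 UMIs in control members (83.3 against 0.645 CPM), a 129-fold difference with a counting interval of 44.0 to 629. It was seen in 5.50% of exposed members, with 35.3% of its UMIs in 1 barcode, and without mixed barcodes its log2 ratio was 0.95. Vcan, a proteoglycan gene of monocytes, stood at 22.5 CPM in exposed and 4.08 CPM in control members (2.43), and at 0.14 without mixed barcodes. Apoe, the gene of a lipid carrier, stood at 644 CPM in exposed and 273 CPM in control members (1.24, 1.15 to 1.33), and at 0.33 without them. Retnla, a gene of alternative activation, was lower with 3 UMIs in exposed and 1072 UMIs in control members, of which 79.1% were in 1 control barcode, and it was not called without mixed barcodes (-2.83, -8.80 to -0.43). Mmp12, an elastase gene, had a log2 ratio of -1.07 in all members and 2.94 without mixed barcodes. Stab1, a scavenger receptor gene, had a log2 ratio of 1.59 in all members, and without mixed barcodes its UMIs in exposed members were 0.

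A few called genes had their UMIs spread over many barcodes. Mt2, a metallothionein gene that binds zinc and copper, stood at 178 CPM in exposed and 298 CPM in control members (-0.74, -0.86 to -0.63), with at most 7.94% of its UMIs in 1 barcode and a ratio of -0.61 (-0.74 to -0.48) without mixed barcodes. Mt1, the neighbouring metallothionein gene, stood at 1398 and 1678 CPM (-0.26). Ncdn stood at 7.24 and 17.2 CPM (-1.24, -1.81 to -0.70), Ece1, an endothelin-converting protease gene, at 9.82 and 21.9 CPM (-1.15, -1.64 to -0.69), and Thbd, the gene of thrombomodulin, at 12.2 and 25.1 CPM (-1.04, -1.48 to -0.61), each with under 10% of its UMIs in 1 barcode. Without mixed barcodes Ncdn was still called (-1.21, -1.87 to -0.60), while Mt2, Ece1 (-0.92, -1.55 to -0.32) and Thbd (-1.07, -1.60 to -0.57) were not. Slc7a11 stood at 91.1 CPM in exposed and 137 CPM in control members (-0.59, -0.75 to -0.42), and without mixed barcodes at 88.1 and 158 CPM, where it was called lower (-0.85).

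For several gene lists the ratio between the libraries was different with and without the mixed barcodes. Interferon response genes were higher in exposed members for 15 of 18 counted, with 6 called and a median of 0.83, against 43.4% of all 10350 genes counted higher and a median of -0.04. Ifitm3, an antiviral membrane protein gene, stood at 387 and 204 CPM (0.92) and Ifi27l2a at 257 and 117 CPM (1.14), but without mixed barcodes they stood at 44.2 and 56.9 CPM (-0.36) and 62.4 and 48.3 CPM (0.37), and the list's median was 0.15 over 12 genes with none called. Genes of MHC class II, the molecules that display antigen to helper T cells, were lower for 11 of 11, with 3 called and a median of -0.66. Cd74, the invariant chain gene, stood at 1292 CPM in exposed and 2169 CPM in control members (-0.75), and without mixed barcodes at 737 and 785 CPM (-0.09), where the list's median was -0.02. In low-chemokine barcodes the class II median was 0.30 with all barcodes and 0.47 without mixed ones. On the complement list 10 of 11 lay higher, with a median of 0.41 in all members and -0.21 without mixed barcodes, a direction that follows in part from the C1q genes that define them. Other cytokines were higher for 9 of 16 counted, with a median of 0.05. Without mixed barcodes 13 of 14 were lower, with 2 called lower and a median of -0.17. Other chemokines had a median of 0.11, and without mixed barcodes 11 of 13 were higher, with 1 called and a median of 0.33. The part of other cells in these differences was not tested beyond these values.

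**Figure D4:**
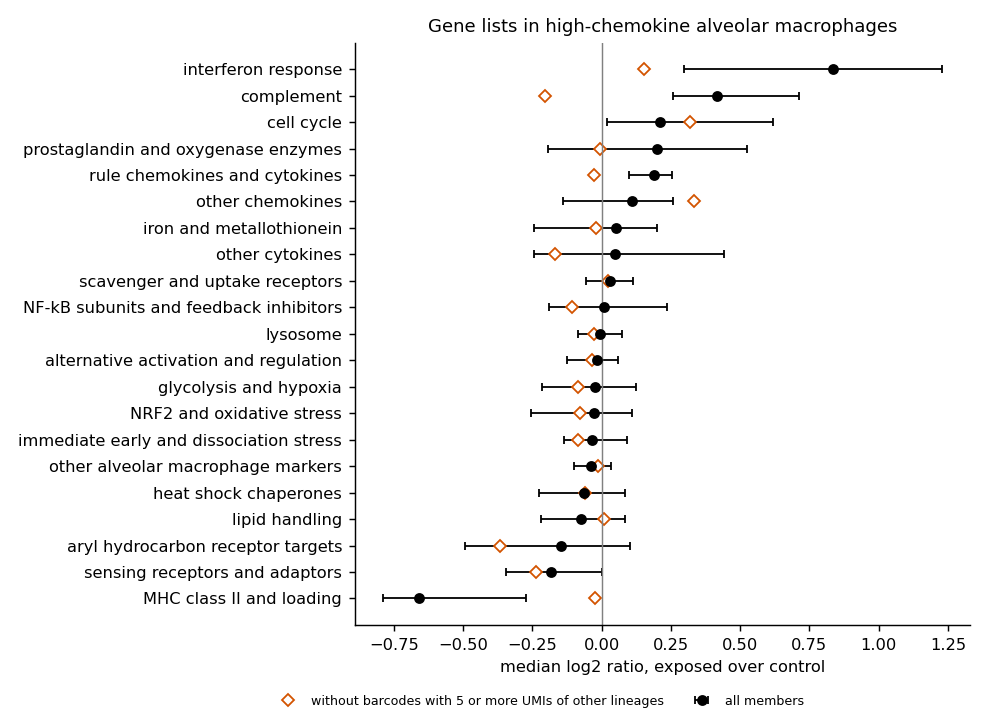
Median log2 ratio of exposed over control in the members for 21 gene lists. Filled circles are all members, with bars from the median of the genes' lower to the median of their upper counting bounds, and open diamonds are the medians without mixed barcodes. The interferon and MHC class II medians of 0.83 and -0.66 lie at 0.15 and -0.02 without mixed barcodes. Complement lies at 0.41 with all members and at -0.21 without mixed barcodes. Without them other chemokines lie at 0.33, cell cycle genes at 0.32, sensing genes at -0.24 and aryl hydrocarbon receptor genes at -0.37.

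Of the lists tied to particle and chemical stress, the NRF2 list was near level, and the aryl hydrocarbon receptor list had too few counted genes to say. On the NRF2 list 9 of 18 genes lay higher, the median was -0.03 and none was called. Sqstm1, an autophagy receptor gene, stood at 407 CPM in exposed and 535 CPM in control members (-0.40, -0.48 to -0.31), and Srxn1, a peroxiredoxin-repair enzyme gene, at 25.9 and 44.9 CPM (-0.79, -1.10 to -0.49). Of 10 aryl hydrocarbon receptor genes only 4 had the 20 UMIs needed, among them the receptor gene Ahr itself. Their median was -0.15, and -0.37 with 3 of the 4 lower without mixed barcodes. The target genes Cyp1a1 and Cyp1b1 were at 0 CPM in the members of both libraries. Tiparp, a target that feeds back on the receptor, stood at 77.2 and 85.1 CPM. Lysosome, lipid handling, glycolysis and scavenger lists had medians of -0.01, -0.08, -0.02 and 0.03. Among immediate early genes Egr1 was higher at 336 and 229 CPM (0.55, 0.44 to 0.66) and Jun at 397 and 279 CPM (0.51, 0.41 to 0.60), while Fos stood at 600 and 636 CPM (-0.08), and the list's median was -0.03.

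Cell cycle genes lay mostly higher in exposed than in control members and lower in exposed than in control low-chemokine barcodes. In the members 14 of 18 were higher in the exposed library, with 1 called and a median of 0.21 (0.32 without mixed barcodes), and in low-chemokine barcodes none of 18 was higher, with 7 called lower and a median of -0.82 (-1.06 without). Of all genes counted in low-chemokine barcodes 37.5% were higher and 0.925% called lower, with a median of -0.09. Top2a, the topoisomerase of dividing cells, stood at 71.8 CPM in exposed and 41.3 CPM in control members and at 37.6 CPM in exposed and 139 CPM in control low-chemokine barcodes. Stmn1 stood at 162 and 97.8 CPM in the members and at 136 and 262 CPM in low-chemokine barcodes. Mki67 stood at 56.5 and 53.1 CPM in the members and at 49.6 and 108 CPM in low-chemokine barcodes. The 4 members below 0 were the genes of the replication helicase Mcm2, Mcm3, Mcm5 and Mcm6, at -0.70, -0.45, -0.79 and -0.47, none of them called.

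The 12 genes with the highest lower bound in exposed members, after genes below 0.5 times their level outside the gate were left out, included Hist1h1b, Hist1h2ae, Hist1h2ap, Pbk, Pclaf, Esco2, Nusap1 and Rrm2. Of these 8, Rrm2 is on the cell cycle list, and the others were grouped with it after their values were seen. Pclaf, a clamp-associated factor of DNA replication, stood at 64.7 CPM in exposed and 25.8 CPM in control members (1.32, 1.03 to 1.63). Rrm2, a subunit of ribonucleotide reductase, stood at 26.7 and 11.0 CPM (1.28, 0.82 to 1.77) and Pbk, a mitotic kinase, at 9.17 and 1.50 CPM (2.52, 1.47 to 3.99). The histone genes are near-identical copies, so their counts are uncertain. Each of the 8 had between 11.6% and 72.7% of its UMIs in a library in 1 member. Barcodes with 3 or more UMIs of Mki67 and Top2a made up 6.73% (4.26 to 10.0%) of exposed and 7.66% (4.60 to 11.8%) of control members, 22 and 18 barcodes, a ratio of 0.878 (0.482 to 1.60). In low-chemokine barcodes they made up 5.79% (3.28 to 9.37%) and 12.1% (7.32 to 18.4%), 15 and 18 barcodes, a ratio of 0.479 (0.249 to 0.923). The gene levels above are sums over all barcodes of a class, not over these barcodes alone.

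**Figure D5:**
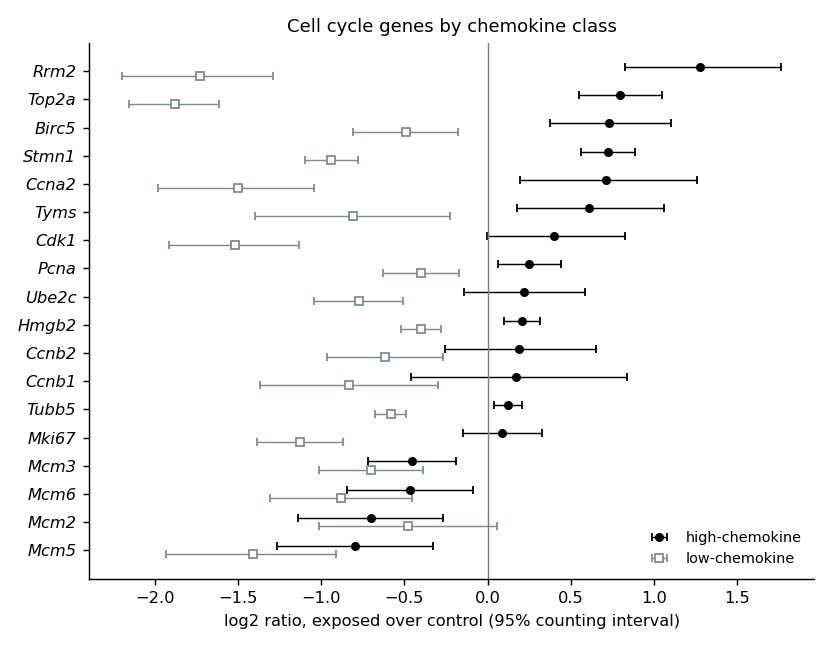
Log2 ratio of exposed over control with 95% counting intervals for the 18 cell cycle genes, in the members (filled circles) and in low-chemokine barcodes (open squares). All 18 low-chemokine ratios lie below 0, and 14 of 18 ratios in the members lie above 0, from Rrm2 at 1.28 to Mki67 at 0.09.

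The difference between the classes in their exposed-over-control ratio was called for 93 of 8287 genes, 70 higher (0.845%) and 23 lower (0.278%) in the members. The leading genes on the higher side were Pbk, Hist1h1b, Hist1h2ae and Esco2. On the lower side were Cxcl9, Ahr, Hmox1 and Hspa1a, whose ratios in the members were 0.40, 0.03, -0.29 and 0.17 and in low-chemokine barcodes 3.28, 2.04, 0.86 and 1.30. Ahr, the aryl hydrocarbon receptor, stood at 10.1 CPM in exposed and 9.89 CPM in control members, and at 29.3 and 6.97 CPM in low-chemokine barcodes, with at most 13.4% and 31.6% of these low-chemokine UMIs in 1 barcode. Hmox1, the haem-degrading enzyme, stood at 92.4 and 113 CPM in the members and at 166 and 91.7 CPM in low-chemokine barcodes, with 45.1% of the exposed low-chemokine UMIs in 1 barcode. For Cxcl9, a CXCR3 ligand, 95.2% of those UMIs lay in 1 barcode, and for Hspa1a 45.3%. Without mixed barcodes the difference for Cxcl9 was 1.51, and at a criterion of 0.05% the differences for Hmox1 and Hspa1a were 0.49 and 0.67, so these directions were not stable. The difference for Ahr was -2.01 (-2.89 to -1.13), -1.12 at a criterion of 0.05%, and -3.82 (-5.61 to -2.03) without mixed barcodes, and it was not called in either alternative.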

How the data were processed

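Raw UMI counts per gene and barcode, as deposited by the authors, were used for both libraries. They were made with Cell Ranger, version 3.1.3 per the submitters' processing notes and 3.1.0 per the file headers, on mm10, and were whole numbers with no normalization. Deposited totals were 67030914 UMIs in the exposed and 62047730 in the control library. A barcode was kept from 500 UMIs and 200 genes upward if mitochondrial genes held no more than 10% of its UMIs. Counts were summed over the barcodes of each class and expressed as CPM (UMIs per 1000000). With 1 library per group no edgeR or other count test was possible, and no test was run.

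Intervals were exact Poisson intervals for levels, exact conditional binomial intervals for log2 ratios (with 0.5 counts added to the ratio itself) and Clopper-Pearson intervals for shares. A gene needed a summed count of 50 and a gene list member 20. The calculation was checked on simulated sums that held counting error only. That check does not cover the spread of a gene's UMIs between barcodes. Genes are named by fixed rules: the rule genes, the 12 called genes farthest beyond their counting bound in each direction between libraries, 12 higher and 8 lower between classes, up to 4 each way for the difference of ratios, and up to 4 per list. Mitochondrial, ribosomal, sex-linked and immunoglobulin genes, and any gene whose CPM fell under 0.5 times that of barcodes outside the gate, were left out of that naming. Other genes with values were chosen after their values were seen. The members and lists were chosen with earlier results of these data known.

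Doublets were scored against 2 simulated doublets per barcode with 30 neighbours and left out only as an alternative. Other thresholds, weights, scalings and count minimums were also tried. Python 3.11.15, numpy 2.4.6, scipy 1.17.1, pandas 2.3.3, scikit-learn 1.9.0 and matplotlib 3.10.9 were used.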

Additional observations from a re-analysis of the deposited data

Results flagged for a closer look

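For 9 genes the exposed and control libraries differed in one direction in the members and in the opposite direction in low-chemokine barcodes, with both ratios beyond the call. With 1 library per group the difference was not tested, and the intervals cover counting error only. The log2 ratio of Pbk was 2.52 in the members and -2.53 in low-chemokine barcodes, a difference of 5.05 (3.66 to 6.43). Hist1h2ae had 2.51 and -1.65, a difference of 4.16 (2.98 to 5.35), and Hist1h1b 2.49 and -1.66, a difference of 4.14 (3.13 to 5.16). Esco2 had 1.78 and -2.02 (3.79, 2.65 to 4.94), Rrm2 1.28 and -1.73 (3.01, 2.38 to 3.63), Pclaf 1.32 and -1.49 (2.81, 2.37 to 3.25) and Nusap1 1.30 and -1.37 (2.67, 2.05 to 3.29). Knl1, a kinetochore gene outside the naming rule that was added after its values were seen, had 1.39 and -1.22 (2.61, 1.72 to 3.51). Stab1 had 1.59 and -1.36 (2.95, 1.87 to 4.03), with 94.9% of its UMIs in control low-chemokine barcodes in 1 barcode.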

How the results depend on the processing

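No paired analysis was possible because each group held 1 library. The ratio of member shares of the gate lay between 0.866 and 0.963 with criteria of 0.05% and 0.2%, other filters, thinning, or 1 rule gene left out of the sum. It was 0.983 with a criterion of 0.5%, 1.17 with 1%, and 1.44 with all kept barcodes as the denominator. Without mixed barcodes 20 genes, with each barcode weighing the same 25, and with a minimum count of 1 77 genes were called higher in exposed members, against 49. With a minimum count of 1, 59 were called lower, against 19, and 11 were lower in high-chemokine barcodes of both libraries, against 7. The count of genes whose ratio differed between classes was 93, and it was 61 with equal weights, 190 with a minimum count of 1 and 50 with a minimum of 100, settings added after the data had been seen. Without mixed barcodes the direction turned for Stab1 (-3.50) and Mmp12 (2.94) between libraries, Ccl17 between classes in the exposed library (0.0022), the difference for Cxcl9 (1.51) and the medians of the rule chemokines (-0.027) and complement (-0.21). With the criterion at 0.05% it turned in the exposed library for Hspa1b (0.19), Ube2c (0.93), Ccl17 (0.51) and the heat shock median (0.071), and for the differences of Hmox1 (0.49) and Hspa1a (0.67). With a marker sum of at least 20 it turned in the control library for Ccl17 (1.51) and AA467197 (0.87). The cause was not tested. Scalings moved the median over all genes by under 0.1 log2 units. Counting error limits genes of few UMIs, and spread between animals is not measured.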
